A study of Mus musculus with 21 samples.

Results

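The comparison set fibroblasts carrying PU.1 and Irf8 (PI8) against fibroblasts of the same reporter line carrying Spib and Irf8 (SI8), both collected on day 3 after viral transduction. Its members were the 411 cells of the PI8 day 3 library and the 1399 cells of the SI8 day 3 library, chosen by the library name in each cell's barcode, 1810 of 25991 deposited cells. Both libraries came from mouse embryonic fibroblasts (MEFs) of the genotype Clec9aCre/Cre Rosa26stopflox-tdTomato/tdTomato, which were grown on gelatin in DMEM with serum after lentiviral delivery. Live, tdTomato-positive cells were sorted and read as single cells by a 3' droplet assay that counts transcripts by unique molecular identifiers (UMIs). The series also held libraries of the same line with other factor sets (PIB, which adds Batf3 to PI8; SII, which adds Ikzf2 to SI8; and sets built on Irf4), day 9 libraries, an hCD2 reporter line, 2 libraries of untransduced wildtype MEFs and splenic dendritic cells (DCs). The sort kept only cells in which the Clec9a-Cre reporter had been switched on, and each side of the comparison was a single library. The factor set and the culture, transduction or library it came from cannot be told apart, and nothing in the labels ties either library to an animal.

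PU.1, encoded by Spi1, and Spib are closely related ETS transcription factors that recognise the same purine-rich DNA core. Both can recruit Irf8 or Irf4 to composite ETS-IRF elements. PU.1 is required for myeloid cells and conventional DCs, whereas Spib is known for its part in plasmacytoid DCs and in B cells. Irf8 is needed for type 1 conventional DCs (cDC1) and is abundant in plasmacytoid DCs (pDC).

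The PI8 library held 31118230 UMIs and the SI8 library 86566455, with medians of 82866 and 63868 UMIs per cell. No cell exceeded 99911 UMIs in PI8 or 99961 in SI8, and the 95th percentile of cells was 98471 in PI8 and 93169 in SI8, so more PI8 cells lay just under this upper end. The mitochondrial share was similar, with medians of 2.20% and 1.93%. The 2 libraries shared 0 cell barcodes with each other, and each shared 0 to 3 with any other library. Levels are given as counts per 1000000 of a library's summed UMIs (CPM), with 95% intervals that cover counting error only. Fewer cells of a kind and less RNA per cell cannot be told apart in such sums, so shares of cells are given beside them.

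The delivered factors were read first. Spi1 stood at 93.4 CPM (95% interval 90.02 to 96.84) in PI8 and 1.55 CPM (1.30 to 1.83) in SI8. Spib stood at 0.321 CPM (0.154 to 0.591) in PI8 and 6.52 CPM (5.99 to 7.08) in SI8. Each library held the factor its label names, and both factors had 0 UMIs in each MEF library. Whether the counted reads came from the delivered or the endogenous gene is not given in the sources used here. The Spi1 signal in SI8 came from 134 UMIs in 110 cells, with at most 3 in any cell, and the 10 Spib UMIs of PI8 included 7 in 1 cell. Irf8, common to both sets, was at 39.1 CPM (36.9 to 41.3) in PI8 and 21.8 CPM (20.8 to 22.8) in SI8, so the shared partner differed in level as well.

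**Figure D1:**
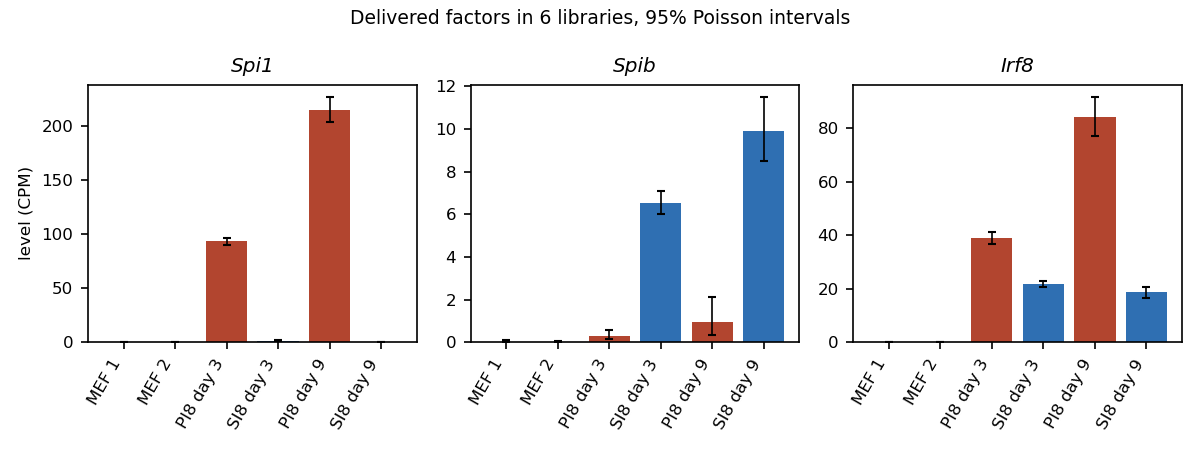
Levels in CPM (vertical axis, from 0) of Spi1, Spib and Irf8 in the 2 MEF libraries and the PI8 and SI8 libraries of the Clec9a line at day 3 and day 9. Bars are single libraries and whiskers are 95% Poisson intervals; Spi1 stood at 93.4 CPM in PI8 at day 3 against 1.55 CPM in SI8, and Spib at 0.321 against 6.52 CPM.

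When every cell was thinned to 10000 UMIs (401 PI8 and 1386 SI8 cells, leaving out 10 and 13 shallower ones), Spi1 was seen in 50.4% of PI8 cells and 1.30% of SI8 cells. Spib was seen in 6.35% of SI8 cells and in 0 of 401 PI8 cells, which allows up to 0.748% of cells with a UMI at this depth and sets no limit on cells expressing it. Without thinning 3 PI8 cells and 374 SI8 cells held a Spib UMI. Irf8 was seen in 26.7% and 18.04%. Of the 202 PI8 cells with a Spi1 UMI, 34.2% also held an Irf8 UMI, against 19.1% of PI8 cells without one. Of the 88 SI8 cells with a Spib UMI, 33.0% held Irf8, against 17.03% of the rest.

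The sorted cells kept fibroblast transcripts alongside those of blood cells. The 20 fibroblast and matrix genes of a fixed list summed to 7901 CPM in PI8 and 11139 CPM in SI8, below the 19161 and 19002 CPM of the MEF libraries. The 18 pan-haematopoietic genes summed to 1082 and 1047 CPM, above 501 and 491 CPM in MEFs. Arhgdib alone gave 472 CPM of this sum in PI8 and 756 CPM in SI8, whereas Ptprc stood at 26.5 and 0.404 CPM. Clec9a, a defining cDC1 gene, had 0 UMIs in both libraries. Both carry Cre on each Clec9a allele, so this 0 cannot be read as a sign of cell type. The pDC gene Siglech had 3 UMIs in PI8 and 0 in SI8. T and NK cell genes summed to 1.74 and 1.05 CPM, close to the 1.44 and 1.27 CPM of MEFs. Endothelial genes summed to 8.71 and 6.05 CPM, above 2.17 and 1.81 CPM in MEFs, with Cldn5 at 0 UMIs in both. Epithelial genes summed to 31.5 and 33.6 CPM, above 2.25 and 1.83 CPM in MEFs. Most of this was Krt18, with 841 UMIs in PI8 and 2393 in SI8, whereas Epcam had 4 UMIs in each.

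Across the 8942 genes with a mean of at least 5 CPM over both libraries, most levels were alike. The median log2 ratio of PI8 over SI8 was 0.13, and the middle 50% of genes lay between -0.09 and 0.36. At a threshold of 2-fold, 401 genes (4.48%) were higher in PI8 and 287 (3.21%) were higher in SI8. Of these, 84 and 80 differed by at least 4-fold, and 35 and 9 by at least 10-fold. With 1 library a side there was no test, and these are counts of ratios. Of the 688 genes past 2-fold, 58.3% were higher in PI8, a share that was 44.7% under TMM scaling (297 higher in PI8, 368 in SI8) and 43.7% under DESeq2 size factors (291 and 375). Those scalings moved every log2 ratio by -0.15 and -0.16, so which side held more genes depended on the scaling.

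**Figure D2:**
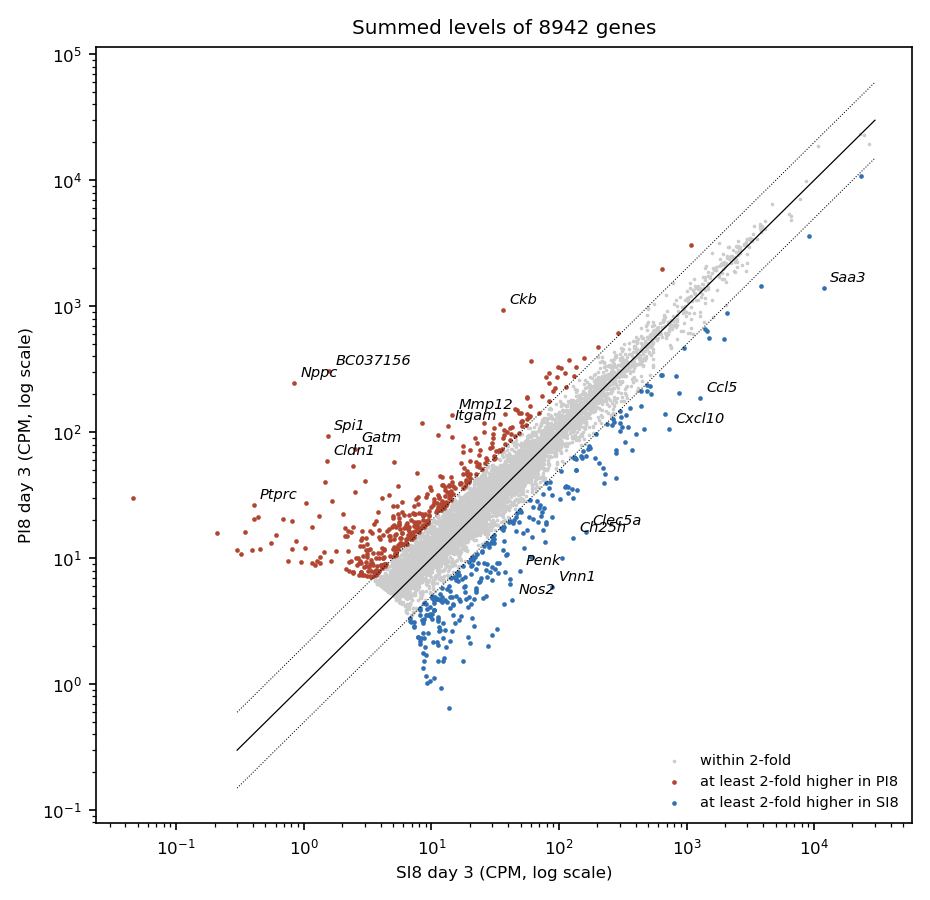
Each point is one of 8942 genes, with its level in SI8 day 3 (horizontal) and PI8 day 3 (vertical), both in CPM on log axes. The solid line marks equal levels and the dotted lines 2-fold; the 401 red genes lie above the band and the 287 blue genes below it, with Nptx1 farthest above the line of equal levels, followed by Nppc and BC037156.

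Nppc and BC037156 led the genes higher in PI8 among those with a mean of at least 20 CPM. Nppc, which encodes C-type natriuretic peptide, was at 246 CPM in PI8 and 0.843 CPM in SI8, a 291-fold difference (counting interval 231 to 372). BC037156 was at 304 CPM and 1.58 CPM, a 192-fold difference (162 to 229). Both were near 0 in MEFs, at 0.707 and 0.604 CPM for Nppc and 0 in both for BC037156. Neither was spread evenly: 84.8% of the Nppc UMIs and 81.8% of the BC037156 UMIs of thinned PI8 cells lay in the top 41 of 401 cells. They overlapped in part, since 52.6% of the 116 PI8 cells with Nppc also held BC037156, against 27.7% of the others.

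Ckb, the brain-type creatine kinase, was at 933 CPM in PI8 and 36.5 CPM in SI8, 25.6-fold higher (24.6 to 26.5), and 12.5 and 13.98 CPM in MEFs. It was present in nearly every PI8 cell, with a UMI in 93.0% of thinned cells against 22.1% in SI8. Gatm, which makes the creatine precursor guanidinoacetate, was at 74.1 against 2.52 CPM, in 30.7% against 1.59% of cells. Splenic cDC1 also carried both genes, at 561 CPM for Ckb and 106 CPM for Gatm. Splenic cDC2 had 345 and 10.9 CPM, and pDC had 3.10 and 0.0565 CPM. The day 3 libraries of PI4 (PU.1 and Irf4) and PIP (PI4 with Prdm1) carried both as well. Ckb was at 431 and 1259 CPM there and Gatm at 126 and 366 CPM.

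Surface receptors of myeloid cells made up a further part of the PI8 side. Itgam, which encodes CD11b, was at 112 against 13.6 CPM and was seen in 43.1% (95% exact interval 38.2 to 48.2) against 9.16% (7.70 to 10.8) of thinned cells. Cd207, which encodes langerin of Langerhans cells and some DCs, was at 40.5 against 1.46 CPM, but 1 PI8 cell held 277 of its 1261 UMIs and only 9.73% of thinned cells had any. Fcgr2b, the inhibitory IgG receptor, was at 57.8 against 5.13 CPM and Ms4a6b, a four-span membrane protein, at 54.4 against 2.41 CPM. Ifitm1, an interferon-induced membrane protein, was at 118 against 8.40 CPM, with 561 of 3669 PI8 UMIs in 1 cell. Itgam and Cd207 had 0 UMIs in both MEF libraries, and Ifitm1 stood there at 51.2 and 47.9 CPM.

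The remaining leading PI8 genes included epithelial, matrix and fibroblast genes. Cldn1, a tight-junction claudin, was at 59.4 against 1.52 CPM and Spint1, a membrane serine protease inhibitor, at 41.4 against 3.02 CPM. Mmp12, macrophage elastase, was at 137 against 14.6 CPM, and Tpd52l1 was at 95.3 against 11.2 CPM. Col6a3 and Gas1 were abundant in MEFs (295 and 276 CPM for Col6a3, 611 and 603 CPM for Gas1) and low in both transduced libraries. They stood at 37.7 and 91.7 CPM in PI8 and at 5.45 and 14.4 CPM in SI8, so the PI8 levels lay between those of SI8 and MEFs. One gene outside the naming rule, picked after its values were seen because its ratio was the highest of the 8942, was Nptx1, which encodes neuronal pentraxin 1. It had 939 UMIs in 38 PI8 cells and 4 UMIs in SI8.

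For the genes higher in SI8 the SI8 value is given before the PI8 value. Saa3, an acute-phase serum amyloid A, was at 11993 CPM in SI8 and 1388 CPM in PI8, 8.64-fold higher (8.56 to 8.73), and 3340 and 3016 CPM in MEFs. It was present in 99.9% of thinned SI8 cells with a median of 67 UMIs, against 64.8% of PI8 cells with a median of 1. In PI8, 73.3% of its UMIs lay in the top 41 cells. The PI8 level of Saa3 was below that of MEFs and the SI8 level above it.

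Vnn1, which encodes the pantetheinase vanin-1, showed the widest gap among the leading SI8 genes, at 89.0 CPM in SI8 and 5.91 CPM in PI8 (28.9 and 31.6 CPM in MEFs). Clec5a, a myeloid receptor that signals through Tyrobp, was at 164 against 16.3 CPM and in 53.2% (50.6 to 55.9) against 11.7% (8.74 to 15.3) of thinned cells. Its adaptor gene Tyrobp, outside the naming rule and chosen after its values were seen, had 0 UMIs in SI8 and 225 UMIs in 50 PI8 cells. Ch25h, cholesterol 25-hydroxylase, was at 129 against 14.6 CPM and Nos2, inducible nitric oxide synthase, at 43.2 against 4.66 CPM. Nos2 UMIs were found in 467 of 1399 SI8 cells and 27 of 411 PI8 cells without thinning.

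The 15 leading SI8 genes included 3 chemokines and 1 interleukin. Cxcl10, a ligand for activated T cells, was at 729 against 107 CPM, Ccl5 at 1268 against 188 CPM, Ccl20 at 279 against 43.7 CPM and the alarmin Il1a at 41.3 against 6.81 CPM. MEFs had 550 and 492 CPM of Cxcl10 and 477 and 505 CPM of Ccl5, between the PI8 and the SI8 levels. Crct1 and Lce1g, both of the epidermal differentiation complex, were at 105 against 10.1 CPM and 37.4 against 4.34 CPM. For Lce1g, 126 of the 135 PI8 UMIs lay in 1 cell, and without the highest cell of each library its log2 ratio went from -3.11 to -6.86. Penk, the enkephalin precursor, was at 49.4 against 7.91 CPM, both far below the 364 and 379 CPM of MEFs, and 1 SI8 cell held 881 of its 4274 UMIs. Masp1, a protease of the lectin complement pathway, was at 60.5 against 10.3 CPM, Prkar2b, a regulatory subunit of protein kinase A, at 77.4 against 13.4 CPM, and Zranb3, a DNA annealing helicase, at 41.1 against 6.27 CPM.

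**Figure D3:**
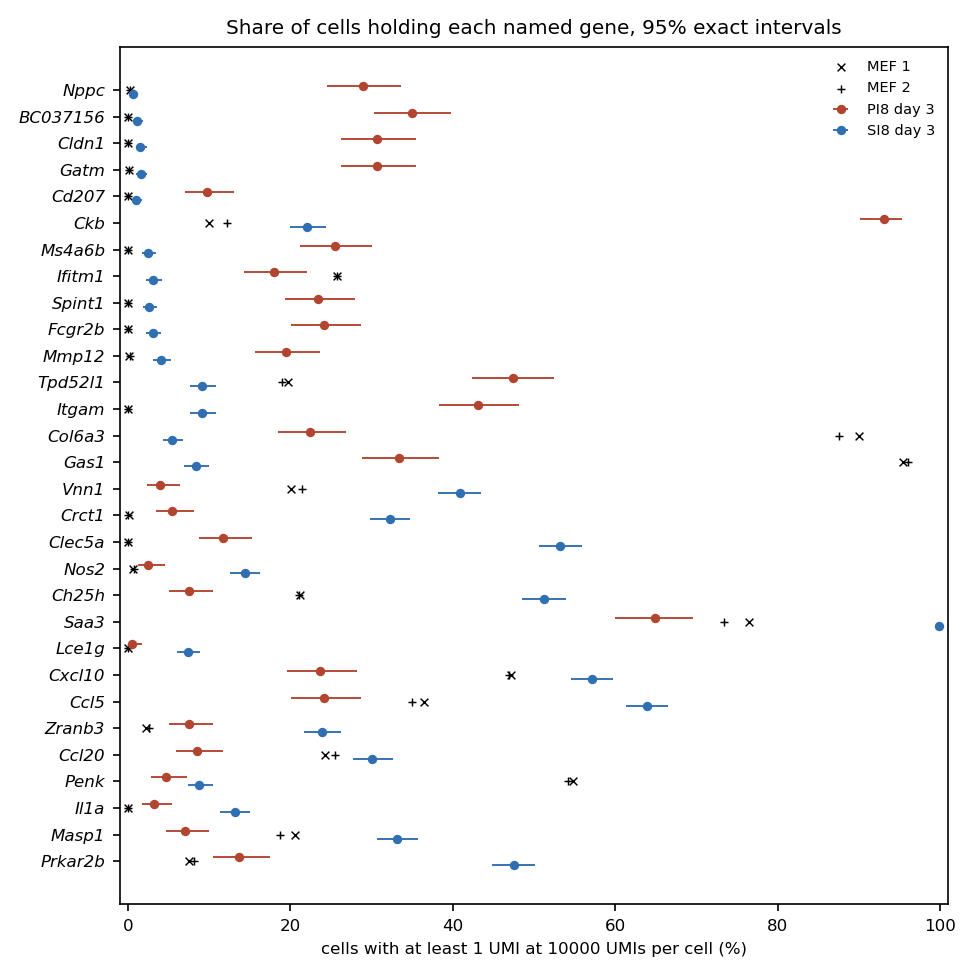
Share of cells (horizontal axis, percent) with at least 1 UMI of each of the 30 leading genes after every cell was thinned to 10000 UMIs. Red and blue points are PI8 and SI8 at day 3 with exact 95% intervals and black crosses are the MEF libraries. The genes were chosen for their ratios in the same cells, so a gap between red and blue is a description; Saa3 stood at 64.8% in PI8 and 99.9% in SI8.

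These 30 genes were chosen for their summed ratios in the same cells, so that their shares of cells differ too is a description, and the intervals cover the counting of cells within 1 library only. The shares separated high levels spread over many cells from high levels in few. Ckb (93.0% against 22.1%), Tpd52l1 (47.4% against 9.16%) and Itgam were seen in a large part of PI8 cells, whereas Cd207 and Ifitm1 (17.96% against 3.10%) were not. On the SI8 side Saa3 was close to universal, Ccl5 was seen in 63.9% against 24.2%, Prkar2b in 47.5% against 13.7% and Lce1g in 7.36% against 0.499%. MEFs had Itgam, Clec5a and Cd207 in 0% of cells at the same thinned depth, and Saa3 in 76.4% and 73.4%. Not every myeloid gene was absent from MEFs, as the monocyte and macrophage list below shows.

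Sequences upstream of 4 genes are shown because the 2 libraries differ in the ETS factor supplied. They are the 250 bases before the start of each gene, in RefSeq's sequence for GRCm38.p6, 5' to 3' on the gene's strand. Capitals mark a match to the ETS-IRF composite (GGAA, any 2 bases, then GAAA) or to the PU.1 and Spib core letters GAGGAAGT, each of which lies here on the opposite strand. The first 3 genes were higher in PI8 and the last was higher in SI8. Among the leading genes and the list members past 2-fold, 6 had such a match, and Pirb (higher in PI8) and Itga11 (higher in SI8) are not printed; the 4 were chosen after these matches were seen. Fcgr2b lies at chr1:170976072-170976321 on the minus strand, C1qc at chr4:136892915-136893164 on the minus strand, Mmp12 at chr9:7344147-7344396 on the plus strand and S100a8 at chr3:90668821-90669070 on the plus strand.
Fcgr2b: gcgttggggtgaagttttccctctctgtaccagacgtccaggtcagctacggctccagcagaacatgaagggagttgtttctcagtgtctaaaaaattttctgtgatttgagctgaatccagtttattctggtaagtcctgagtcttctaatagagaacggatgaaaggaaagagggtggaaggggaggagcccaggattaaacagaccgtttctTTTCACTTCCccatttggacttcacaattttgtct
C1qc: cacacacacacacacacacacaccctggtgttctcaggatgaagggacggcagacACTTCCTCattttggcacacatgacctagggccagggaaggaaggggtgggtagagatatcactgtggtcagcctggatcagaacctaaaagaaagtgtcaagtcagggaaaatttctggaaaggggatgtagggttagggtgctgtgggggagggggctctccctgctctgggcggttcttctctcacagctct
Mmp12: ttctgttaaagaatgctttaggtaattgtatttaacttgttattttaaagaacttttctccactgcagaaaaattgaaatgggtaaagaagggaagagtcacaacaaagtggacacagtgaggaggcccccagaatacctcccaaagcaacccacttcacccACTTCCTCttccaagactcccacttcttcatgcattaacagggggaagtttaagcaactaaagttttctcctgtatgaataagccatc
S100a8: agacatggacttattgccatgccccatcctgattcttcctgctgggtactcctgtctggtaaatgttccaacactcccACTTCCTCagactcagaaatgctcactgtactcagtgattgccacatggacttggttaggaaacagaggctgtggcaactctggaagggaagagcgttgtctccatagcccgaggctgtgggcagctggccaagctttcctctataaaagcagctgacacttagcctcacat

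Over promoter windows of 300 bases (250 before and 50 after the start, both strands, any window listed for a gene), 7184 of the 8942 compared genes had a sequence. GAGGAAGT occurred in 3.80% of these, in 8.50% of the 306 matched genes higher in PI8 and in 5.99% of the 217 matched genes higher in SI8. The composite of GGAA and GAAA with 2 bases between occurred in 3.13%, 3.59% and 3.69%. The IRF repeat of GAAA, any 2 bases and GAAA, which can overlap the composite, occurred in 4.12%, 3.59% and 6.91%. The core TATAAA occurred in 8.85%, 12.4% and 18.9%. These are descriptions of letters near gene starts with no test.

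Genes of MHC class II presentation were mostly higher in PI8 (PI8 stands before SI8 in the pairs of values from here on). Of 13 genes on the list 10 were compared, and 8 (7 under TMM scaling) were at least 2-fold higher in PI8 and 0 higher in SI8. Of all compared genes 4.48% and 3.21% were, the shares beside which every list count here is to be read. The median log2 ratio was 1.40 against 0.13 for all compared genes. H2-Aa was at 297 against 84.2 CPM, H2-Eb1 at 372 against 119.7 CPM and the class II transactivator Ciita at 18.9 against 6.49 CPM. Ctss, the protease that trims the invariant chain, was at 143 against 48.9 CPM. The invariant chain Cd74 was at 2646 against 1588 CPM (log2 0.74), and Ifi30 at 85.6 against 72.2 CPM. In MEFs H2-Aa stood at 0.0252 and 0 CPM and Cd74 at 16.9 and 17.8 CPM.

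The difference in class II was one of degree, with many SI8 cells above MEFs. The list's summed UMIs per thinned cell had a median of 22 in PI8 and 13 in SI8, against 2 in each MEF library, and the 90th percentiles were 118 and 64.5. H2-Aa was seen in 36.7% of PI8 cells and 20.1% of SI8 cells, and Cd74 in 89.8% and 86.2%. Ciita went with H2-Aa in both: it was seen in 30.6% of H2-Aa-positive PI8 cells against 4.72% of the rest, and in 17.2% against 2.89% in SI8. MHC class I presentation had 0 of 13 genes past 2-fold, where 7.69% of all compared genes were. Its median log2 ratio was 0.20, against 0.13 for all compared genes. The H2 genes resemble one another, and the counting could have split their reads.

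Of 18 pan-haematopoietic genes 11 were compared, with 6 higher in PI8 (5 under TMM scaling) and 1 higher in SI8. Of all compared genes 4.48% and 3.21% were, and the list's median log2 ratio was 1.08. Ptprc, which encodes the leukocyte antigen CD45, was at 26.5 CPM in PI8 and 0.404 CPM in SI8, in 16.5% against 0.361% of thinned cells and in none of either MEF library. Lcp1, an actin-bundling protein of leukocytes, was at 9.54 against 0.751 CPM, and Coro1a, an actin regulator, at 118 against 25.7 CPM. Fcer1g, the Fc receptor gamma chain, ran the other way, at 4.63 against 11.7 CPM, and Arhgdib, with more UMIs than the others named, was at 472 against 756 CPM. The summed level of the list was about equal in both libraries, at 1082 and 1047 CPM. In the pair of PIB and SII at day 3 all 6 of the PI8-higher genes ran the other way, with Ptprc at 37.4 CPM in PIB and 317 CPM in SII and list sums of 1066 and 2021 CPM.

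Ptprc and Col3a1 UMIs were read from some of the same cell barcodes. Of the 66 thinned PI8 cells with a Ptprc UMI, 18 also held Col3a1, and Col3a1 was seen in 27.3% of Ptprc-positive cells and 16.7% of the rest. In SI8, 2 of the 5 Ptprc-positive cells held Col3a1, against 47.9% of the rest. The part of free RNA in these shares was not tested.

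Of 10 compared integrins 4 were higher in PI8 and 1 in SI8 (median log2 0.48), beside 4.48% and 3.21% of all compared genes. Itgax, which encodes CD11c of DCs, was at 11.7 against 0.393 CPM and in 11.7% against 0.289% of thinned cells, and its partner chain Itgb2 was at 12.5 against 2.93 CPM. Itga11, a collagen receptor, was at 2.35 against 8.29 CPM. Among 11 compared Fc receptor and ITAM genes 5 were higher in PI8 and 2 in SI8 (median log2 0.36). Beside Fcgr2b these included Lilr4b at 107 against 41.3 CPM and Plcg2 at 19.4 against 8.02 CPM. Trem2, a lipid-sensing receptor of macrophages, was at 2.89 against 7.25 CPM. Lilr4b and its neighbour Lilrb4a (139.6 against 167 CPM) are close in sequence, so their split is uncertain.

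Cytokine receptor genes had 5 of 10 higher in PI8 (4 under TMM scaling) and 0 higher in SI8, beside 4.48% and 3.21% of all compared genes, with a median log2 ratio of 0.98. Il4ra was at 45.1 against 11.7 CPM, Il10ra at 14.2 against 3.97 CPM and Csf2rb2 at 11.1 against 3.85 CPM. Csf1r, the receptor for macrophage colony-stimulating factor, was at 43.2 against 20.2 CPM. Its ligand Csf1 ran opposite, at 67.9 CPM in PI8 and 280 CPM in SI8. Il1r1 was at 11.3 against 13.9 CPM.

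Monocyte and macrophage genes split between the libraries. Of 23 genes 16 were compared, 7 higher in PI8 and 5 higher in SI8, beside 4.48% and 3.21% of all compared genes. With TMM scaling the counts were 6 and 6. The median log2 ratio was -0.15. The list summed to 4383 CPM in PI8 and 4693 CPM in SI8, below the 7605.5 and 7700.5 CPM of the MEF libraries. Higher in PI8 were the complement C1q chains C1qb (27.3 against 1.04 CPM) and C1qc (13.3 against 0.554 CPM) and the chemokine receptor Ccr2 (78.4 against 17.8 CPM). Higher in SI8 were Trem2, Cd68 (25.7 against 62.5 CPM) and the scavenger receptor Cd36 (28.3 against 67.4 CPM). Members with many UMIs were also divided. Ctsk, cathepsin K, was at 1982 against 643 CPM, and Lyz2, lysozyme, at 664 against 1404 CPM and in 41.9% against 79.5% of thinned cells. Apoe counted as higher in PI8, at 33.6 against 13.3 CPM, but 1 PI8 cell held 552 of its 1047 UMIs, and without the highest cell of each library its log2 ratio went from 1.34 to 0.41.

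A list of genes known as PU.1 targets did not lie on one side. Of 13 compared members 4 were higher in PI8 (Itgam, Ctss, Fcgr3 and Csf1r) and 2 in SI8 (Lyz2 and Cd68). Under TMM scaling these counts became 3 and 3. Of all compared genes 4.48% were higher in PI8 and 3.21% in SI8. The list's median log2 ratio was -0.31. Il1b, interleukin 1 beta, was abundant in both, at 643 against 903 CPM, with 0 UMIs in MEFs.

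Markers of DC subsets were few and divided. Among all compared genes 4.48% were higher in PI8 and 3.21% in SI8. Of the cDC1 list 8 of 16 genes were compared and 2 were higher in PI8, Cadm1 (17.6 against 1.16 CPM) and Cd24a (57.3 against 17.1 CPM). Xcr1, the cDC1 chemokine receptor, fell just under the 5 CPM minimum, was named after its values were seen, and ran the other way at 1.74 against 8.19 CPM, in 0.998% against 6.78% of thinned cells. Of 7 compared cDC2 genes 2 were higher in PI8, Itgam and Cd209a (17.5 against 6.08 CPM), and 1 in SI8, Tmem176a (466 against 961 CPM). Thinned to equal depth, Cd209a had a log2 ratio of 0.89, under the threshold. Cx3cr1, the fractalkine receptor, also lay just under the 5 CPM minimum and was named after its values were seen, at 0.450 against 9.53 CPM. Other members under the minimum ran toward PI8, such as Clec4a2 of the cDC2 list (3.41 against 0.139 CPM). Wdfy4 of the cDC1 list, at 1.77 against 0.196 CPM, did so as well. Of 18 pDC genes 6 were compared, and only Pld4, an endolysosomal exonuclease, passed 2-fold, at 62.9 against 151 CPM. Below the minimum, pDC members ran both ways on low counts and were named after their values were seen. Ly6c2 (1.45 against 0.0578 CPM), Upb1 (0.868 against 0.0347 CPM) and Cox6a2 (0.771 against 0.162 CPM) ran toward PI8. Tlr7 (0.0321 against 0.196 CPM) and Tlr9 (0.129 against 0.162 CPM) ran toward SI8.

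Transcription factors gave further differences. Among pDC factors Mycl was at 2.02 CPM in PI8 and 27.6 CPM in SI8, in 2.49% against 18.8% of thinned cells, whereas Bcl11a was at 12.5 against 2.75 CPM. In the myeloid list Cebpd, a C/EBP family factor, was at 287 against 629.9 CPM. Prdm1, not delivered to either library, was at 15.1 against 2.18 CPM, with 9.08 and 9.00 CPM in MEFs. In the pair of PIB and SII at day 3 Prdm1 ran the other way, at 2.45 and 28.4 CPM. Irf4, also not delivered, lay under the 5 CPM minimum and was named after its values were seen. It had 80 UMIs in 55 PI8 cells and 3 UMIs in SI8, with 0 in each MEF library. Of 10 compared conventional DC factors 2 were higher in PI8, Notch2 (19.4 against 7.68 CPM) and Etv3 (121 against 50.5 CPM), beside 4.48% of all compared genes. Id2 was at 373 against 322 CPM.

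**Figure D4:**
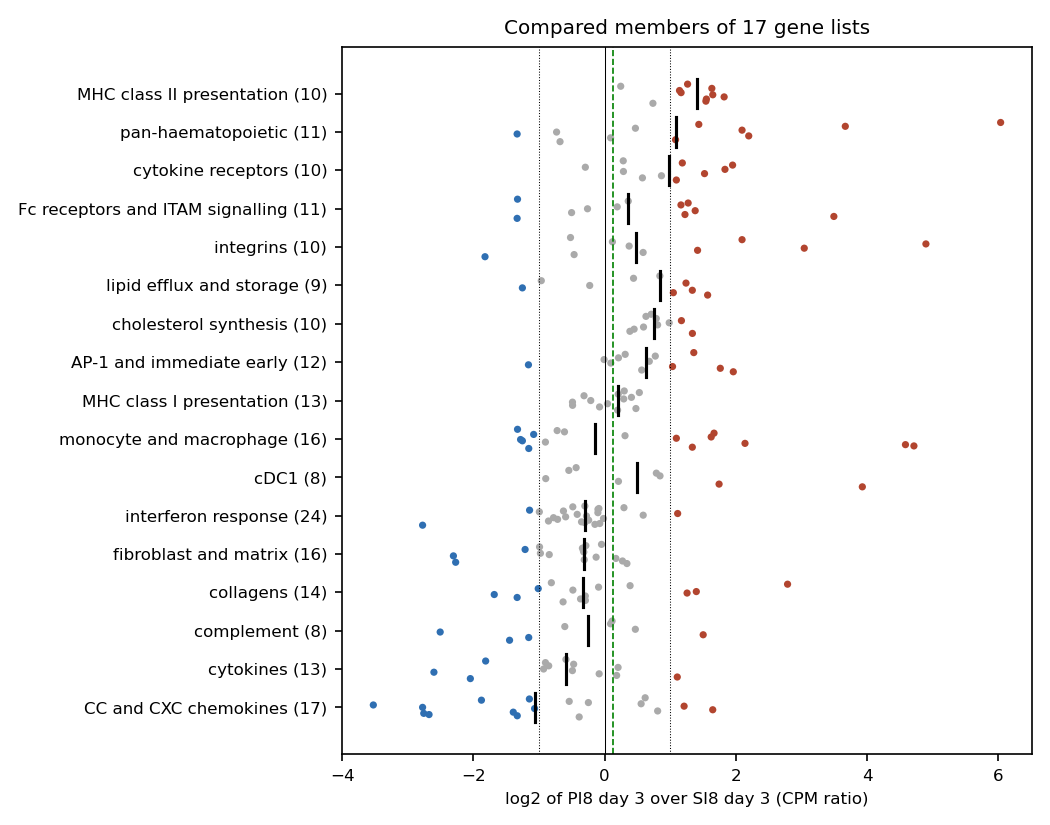
Log2 ratio of PI8 day 3 over SI8 day 3 (horizontal axis) for every compared member of 17 gene lists, with the number compared in brackets. Points are genes, red and blue where at least 2-fold higher in PI8 or SI8, black bars are list medians and the green dashed line is the median of all 8942 compared genes (0.13); MHC class II lies to the right (median 1.40) and chemokines to the left (median -1.07).

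Chemokines were mostly higher in SI8. Of 17 compared CC and CXC ligands 9 were higher in SI8 and 2 in PI8, beside 3.21% and 4.48% of all compared genes. The median log2 ratio was -1.07. The monocyte attractants Ccl2 and Ccl7 were at 3610 against 9082 CPM and 1462 against 3834 CPM. Ccl8, with more UMIs than any other chemokine in both libraries (581913 in PI8, 924242 in SI8), had a log2 ratio of 0.81 and was not past the threshold. Ccl9 was at 44.3 against 14.2 CPM and Cxcl12 at 22.0 against 9.52 CPM, with PI8 higher. Cxcl13 counted as higher in SI8, at 1.54 against 17.7 CPM, but 1 SI8 cell held 1061 of its 1536 UMIs. The summed level of the list was near equal, at 27270 CPM in PI8 and 30144 CPM in SI8, with Ccl8 making up much of it. Ccl8 and Ccl12 are similar in sequence, so their split is uncertain.

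Cytokines followed the chemokines in part. Of 13 compared genes 3 were higher in SI8, Il1a, Csf1 and Tnf (8.55 against 30.02 CPM), and 1 in PI8. All compared genes had 3.21% and 4.48% on those sides, and the list's median log2 ratio was -0.59. The single PI8 gene was Csf3, of which 1 PI8 cell held 202 of 402 UMIs and whose log2 ratio was 0.40 without the highest cell of each library. Under TMM scaling 6 were higher in SI8 and 0 in PI8. Of 24 interferon-response genes 1 was higher in PI8 (Oas2, 7.87 against 3.64 CPM) and 2 in SI8 (Cxcl10, and Rsad2 at 61.3 against 135 CPM), with a median log2 ratio of -0.30. Under TMM scaling these counts became 0 and 4. All 12 NF-kB pathway genes lay within 2-fold (median log2 0.09). S100a8, a calgranulin of neutrophils and monocytes, was at 377 CPM in SI8 and 72.4 CPM in PI8.

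The complement list, which holds no C1q chain, had 1 of 8 genes higher in PI8, C2 (32.0 against 11.3 CPM), and 3 higher in SI8, among them C3, the central component, at 224 CPM in SI8 and 39.5 CPM in PI8. Of all compared genes 4.48% were higher in PI8 and 3.21% in SI8.

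Fibroblast genes were lower in PI8 for some members. Of 16 compared fibroblast and matrix genes 3 were higher in SI8 (5 under TMM scaling) and 0 in PI8, beside 3.21% and 4.48% of all compared genes. The list's median log2 ratio was -0.32. Dcn, decorin, was at 140.1 CPM in PI8 and 675 CPM in SI8, against 1369.9 and 1384.5 CPM in MEFs. Lox, lysyl oxidase, was at 46.7 and 230.5 CPM, and Postn, periostin, at 75.5 and 175 CPM. Dcn was seen in 30.7% of PI8 and 65.3% of SI8 cells. Among the collagens, Col3a1 (36.7 against 118 CPM) and Col1a1 (119.3 against 300.5 CPM) were higher in SI8, and Col4a1 (213 against 89.2 CPM) and Col4a2 (194 against 73.7 CPM) were higher in PI8. Of 14 compared collagens 3 were higher on each side (median log2 -0.33), with Col6a3 the third in PI8 and Col5a2 the third in SI8. The 7 compared contractile genes all lay within 2-fold.

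Proteinase, lipid and immediate early genes gave smaller groups. Their counts stand beside 4.48% higher in PI8 and 3.21% higher in SI8 among all compared genes. Mmp12, Mmp9 (31.6 against 4.62 CPM) and Mmp13 were the 3 of 10 metalloproteinase-list genes higher in PI8, and the inhibitors Timp1 (634 against 1444 CPM) and Timp3 the 2 higher in SI8. Of 9 lipid efflux and storage genes 4 were higher in PI8, including the cholesterol exporter Abca1 (90.04 against 30.3 CPM) and Fabp5 (477 against 202 CPM), and 1 in SI8, Cd36. With TMM scaling the lipid counts were 3 and 2. Cholesterol synthesis had 2 of 10 higher in PI8, Cyp51 (26.3 against 10.4 CPM) and Insig1 (21.7 against 9.63 CPM), and a median log2 ratio of 0.75. Of 12 immediate early genes 4 were higher in PI8, led by Dusp1 (100.9 against 25.9 CPM) and Fos (191 against 56.4 CPM), and 1 in SI8, Fosl1 (11.2 against 25.1 CPM). With TMM scaling the immediate early counts were 3 and 1. Of 9 compared cell-cycle genes 0 passed 2-fold (median log2 0.46). On a separate list of cyclin D and CDK inhibitor genes 2 of 10 were higher in PI8 (1 under TMM scaling). Ccnd1, cyclin D1, was among the 2, at 615 against 291 CPM.

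Genes with many UMIs past 2-fold, named after their values were seen, included a secreted and a lysosomal protein. Cst3, the cysteine protease inhibitor cystatin C, was at 10757 CPM in PI8 and 23445 CPM in SI8. Ctsd, cathepsin D, was at 3087 CPM in PI8 and 1087 CPM in SI8.

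Other pairs of libraries that shared none with this one were set beside it. PIB over SII at day 3 also contrasts PU.1 with Spib in the same line, but the sets differ by Batf3 and Ikzf2 as well. Of the 401 genes higher in PI8, 54.9% had a higher level in PIB than in SII, against 44.2% of all 8942 genes. Of the 287 higher in SI8, 31.7% were higher in SII than in PIB, against 55.8% of all genes. Most genes of the SI8 side thus ran the opposite way in that pair. Among the 15 leading PI8 genes 13 kept their direction, Cldn1 (2.87 CPM in PIB, 46.8 CPM in SII) and Itgam (10.5 and 41.1 CPM) being the exceptions. Among the 15 leading SI8 genes 3 kept theirs (Vnn1, Ch25h and Penk), and Saa3 was at 1496 CPM in PIB and 1.66 CPM in SII. A kept direction did not mean a like level. In PIB, Nppc was at 2.62 CPM, BC037156 at 4.86 CPM and Mmp12 at 4.58 CPM, far below PI8 at day 3. Their SII levels were 0.0224, 0 and 0.0224 CPM. The Irf4 sets PI4 and PIP at day 3 held Nppc at 413 and 810 CPM and BC037156 at 778 and 767 CPM, above PI8. Mmp12 was at 5.37 and 32.0 CPM there, below PI8. Ifitm1 and Col6a3, at 125 and 46.4 CPM in PIB, were not below their PI8 levels.

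The PI8 and SI8 libraries of day 9 gave a different balance. Of 396 measurable genes higher in PI8 at day 3, 43.4% were higher in PI8 at day 9, against 48.9% of all 8936 genes, and of 287 higher in SI8, 89.5% were higher in SI8 at day 9, against 51.1%. The library labelled PI8 day 9 stood apart. Its fibroblast and matrix genes summed to 89.3 CPM, whereas SI8 held 12425 CPM at day 9. The Y-linked gene Ddx3y had 0 UMIs there, against 17.4 CPM in PI8 at day 3 and 19.4 CPM in SI8 at day 9. A difference at day 9 therefore cannot be told apart from this difference between libraries.

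**Figure D5:**
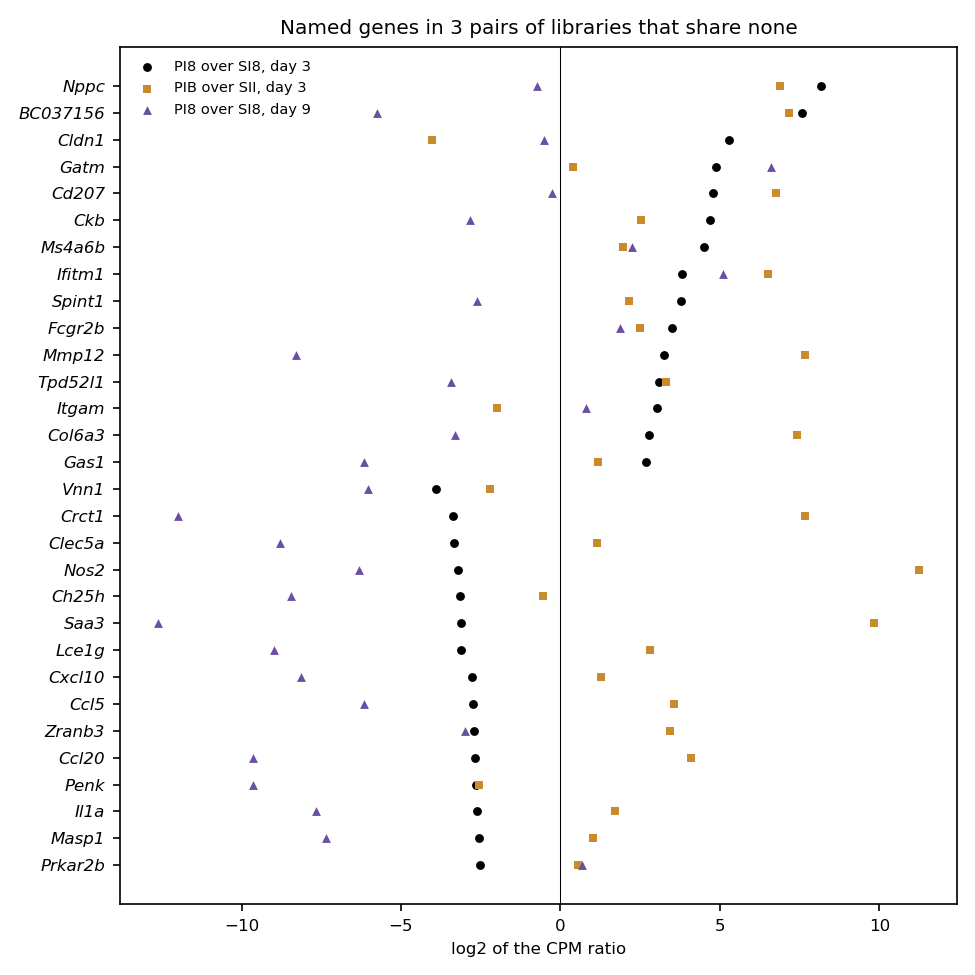
Log2 ratio of CPM (horizontal axis) of the 30 leading genes in 3 pairs of libraries, with black circles for PI8 over SI8 at day 3, orange squares for PIB over SII at day 3 and purple triangles for PI8 over SI8 at day 9. Circles chose the genes; squares lie on the circles' side for 13 of 15 upper genes and 3 of 15 lower genes, and triangles lie on the opposite side for 10 of 15 and 1 of 15.

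The single test the design allowed was the contrast of PI8 and SI8 over both days in a fit of all 16 transduced libraries with arm and day as terms (edgeR's quasi-likelihood test, Benjamini-Hochberg adjustment, 7 residual degrees of freedom). It called 0 of 16090 genes (0%), with 2576 at an unadjusted p under 0.05, and the lowest adjusted p was 0.0912 for Gatm and Gbp8. DESeq2 on the same design called 883 (5.49%). The result turned on the PI8 libraries. Without the PI8 day 3 library, which leaves the library that stood apart as the only PI8 one, 7328 of 17368 genes (42.2%) were called, and without the PI8 day 9 library 11 of 16847 (0.0653%), all higher in PI8.

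Those 11 genes rested on the PI8 library of day 3 and both SI8 libraries, so they share data with the ratios above and are named because the count is small. They were Sema4a, Ptpn6, Gatm, Ptpn7, Gbp8, Rab3il1, Ms4a6d, Spi1, Cldn1, Ckb and Ppp1r18os. Without the PI8 day 3 library Ckb (-3.28), Cldn1 (-8.73), Ms4a6d (-8.26) and Ppp1r18os (-1.93) had a log2 difference of the opposite sign. Gatm had a log2 difference of 4.73 (SE 0.52, adjusted p = 0.0279, edgeR) and levels of 74.1 CPM in PI8 at day 3 and 2.52 and 0.634 CPM in SI8 at days 3 and 9. The phosphatase gene Ptpn6, which encodes SHP-1, had a log2 difference of 2.89 (SE 0.29, adjusted p = 0.0229, edgeR), with 17.5 CPM against 2.09 and 0.864 CPM. Sema4a, a semaphorin of DCs, was at 8.81 CPM against 0.185 and 0.518 CPM. In this fit the lone PI8 library is assumed to vary as the other arms do between days.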

How the data were processed

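The deposited table held raw UMI counts of every gene in every cell of the series and was made by the authors with Cell Ranger 6.0.1, Seurat and the mm10 build per the submitters' processing notes; their filters on cells are not given in the sources used here. Counts of the 24455 genes were summed per library and divided by its total to give CPM, with exact Poisson 95% intervals; a count of 0 stood at 3 counts in a ratio (0.0964 CPM in PI8, 0.0347 CPM in SI8). These intervals cover counting error only. No cell was removed; Scrublet in scanpy 1.11.5 marked 6 PI8 (1.46%) and 7 SI8 cells (0.500%) as doublets, which stayed in. Genes with a mean of at least 5 CPM were compared at a ratio of 2. Shares of cells were read after thinning to 10000 UMIs, with exact Clopper-Pearson intervals. The fit over 16 transduced libraries in 8 arms used edgeR 4.0.16 with TMM scaling on the summed counts and 7 residual degrees of freedom, with DESeq2 1.42.0 as an alternative. It was also run on simulated counts with a single fixed spread and no arm-by-day effect. These differ from the data, so they cannot tell the fit's error rate here. The SE beside an edgeR log2 difference is the size of that difference divided by the square root of its F statistic.

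The named genes were the 15 highest and 15 lowest ratios with a mean of at least 20 CPM, leaving out the delivered factors, mitochondrial genes, Gm42418, AY036118, Lars2 and sex-linked transcripts; of each gene list, the 3 highest and 3 lowest ratios and the 2 highest means; the delivered factors; and the 5 lowest adjusted p a direction. Other list members past 2-fold, and members given for contrast, were named after their values were seen. The members and lists were chosen with earlier results of these data known. Alternatives covered the scaling, the CPM minimum, doublets, mitochondrial genes, shallow cells, thinning, weighting per cell, the UMIs that count a cell as positive, the count tool and leaving out libraries.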

Additional observations from a re-analysis of the deposited data

Results flagged for a closer look

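For 11 of the 30 leading genes the PI8 over SI8 ratio of day 9 lay on the other side of 0 from that of day 3. Each value rests on 1 library a side, and the difference between days was not tested. The library labelled PI8 day 9 stood apart from the others, and its part in these values was not tested.

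Mmp12, macrophage elastase, had a log2 ratio of -8.31 at day 9, with 0 UMIs in PI8 and 2660 in SI8, against 3.23 at day 3. BC037156 was at -5.76, with 0 and 455 UMIs. The fibroblast genes Gas1 and Col6a3 were at -6.15 (1 and 199 UMIs) and -3.32 (0 and 84 UMIs). Where PI8 had 0 UMIs the value is computed against 3 counts and is a bound.

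The creatine kinase gene Ckb, at 933 CPM in PI8 on day 3, had a day 9 log2 ratio of -2.83 with 3.55 CPM in PI8 and 25.2 CPM in SI8. Tpd52l1 was at -3.44 and Spint1 at -2.62. Nppc (-0.74), Cldn1 (-0.51) and Cd207 (-0.25) had 0 UMIs in PI8 and 10 to 14 in SI8 at day 9, so their sign rests on few counts. Prkar2b was the only leading SI8 gene among the 11, with a day 9 log2 ratio of 0.68 and levels of 57.1 CPM in PI8 and 35.7 CPM in SI8.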

How the results depend on the processing

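The number of genes past 2-fold (688) moved with the CPM minimum: 1298 (787 higher in PI8, 511 in SI8) at 1 CPM and 288 (151 and 137) at 20 CPM. It lay between 665 and 761 under the other settings, which were TMM, DESeq2 size factors, no mitochondrial genes, no doublets, cells of at least 10000 UMIs, thinned cells and the mean over cells. Leaving out the cell of each library with most UMIs of a gene, chosen after seeing the data, gave 695. At 20 CPM the share of PI8-higher genes also higher in PIB was 63.6% and of SI8-higher genes also higher in SII 21.9%. For the day 9 pair these were 37.7% and 96.3%, and under TMM the first was 37.5%. The edgeR count of 0 became 883 with DESeq2 and ranged from 0 to 7328 with 1 library left out. With 1 library left out, the edgeR log2 difference lay between -3.28 and 4.61 for Ckb, -8.73 and 5.47 for Cldn1, -8.26 and 2.68 for Ms4a6d and -1.93 and 2.90 for Ppp1r18os, the negative values being those without the PI8 day 3 library; the cause was not tested. Counted once per gene and setting, 255 log2 ratios of named genes lay outside the gene's 95% counting interval, 617 inside it, and 0 changed sign. Thinning moved the log2 ratio by over 1.5-fold for Cxcl13 (to -4.53), Lce1g (-3.78) and Spib (-3.20) and moved Mycl to -2.76, Bcl11a to 1.51, Cd209a to 0.89, Itgax to 5.54, Nptx1 to 7.08, Penk to -2.03, Tyrobp to 4.85 and Xcr1 to -3.01. Without the highest cell Mmp9 went to 3.44 and Cxcl13 to -2.37. No paired analysis was possible because each group was 1 library and the groups compared share fewer than 2 replicate numbers.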
